A study of Mus musculus with 19 samples.

Results

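The genes described here encode the platelet surface integrin and the glycoproteins that bind von Willebrand factor and collagen: Itga2b, Itgb3, Gp1ba, Gp1bb, Gp5, Gp9 and Gp6. They are 7 of the 25124 genes in the deposited count table and were chosen by symbol, without use of their values, and 6 of them passed the filter on low counts. RNA was measured in 2 sorted progenitor populations of C57BL/6 mice, taken either from the fetal liver at E14.5 or from the marrow of 12-week-old adults. Stem cells (HSC) were gated as cKit+ Sca1+ CD48- CD150+ Flt3- and multipotent progenitors with lymphoid priming (LMPP) as cKit+ Sca1+ CD48+ CD150- Flt3+. Every gate removed 7AAD+ cells and cells bearing CD3, Gr1, B220 or ter119, and the stated adult gates removed CD11b+ cells too. Adult HSC had 3 libraries, fetal HSC 2, and LMPP 3 at each age, and open chromatin was given as 1 ATAC-seq peak list for each of these 4 groups. Tissue and age differ together between the fetal and the adult groups and cannot be told apart. Whether replicates are separate mice or pools is not in the labels, and p-values measure the spread between these libraries, which may be technical.

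As background, Itga2b (integrin αIIb, CD41) and Itgb3 (integrin β3, CD61) encode the chains of the platelet fibrinogen receptor, which signals from inside the cell open for binding so that platelets aggregate. Gp1ba, Gp1bb, Gp9 and Gp5 encode the chains of the GPIb-IX-V complex, which holds platelets to von Willebrand factor under flow: GPIbα carries the binding site, GPIbβ is linked to it by disulfide bonds, GPIX is needed to bring the complex to the surface, and GPV is the loosely held chain that thrombin cuts. Gp6 encodes GPVI, the collagen receptor that signals through the Fc receptor γ chain. These proteins mark megakaryocytes, the platelet-forming cells of the marrow, and CD41 is also known from early hematopoietic cells and from part of the stem cell pool. The title of the series concerns developmental signals and emergency megakaryopoiesis in stem cells.

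The genes lie on 4 chromosomes of the mouse build mm10, and all are protein coding. On chromosome 11 lie Itga2b (102453297 to 102469883, minus strand, 3405 bases of exons), Itgb3 (104608000 to 104670471, plus strand, 5762 bases) and Gp1ba (70639122 to 70643986, plus strand, 4656 bases). On chromosome 16 lie Gp1bb (18620319 to 18622403, minus strand, 2082 bases) and Gp5 (30307685 to 30310781, minus strand, 2195 bases). Gp9 lies on chromosome 6 (87778070 to 87779762, plus strand, 873 bases) and Gp6 on chromosome 7 (4368713 to 4397744, minus strand, 1142 bases). Gp1bb overlaps the septin gene Sept5 by 593 bases on the same strand, so reads there cannot be assigned to 1 of the genes. Sept5 itself stood at 1.79 ± 0.749 CPM in adult HSC and at 0.416 ± 0.0322 CPM or less in the other groups. Slc25a11, a mitochondrial carrier gene on the opposite strand, ends 41 bases from Gp1ba and stood at 151 to 216 CPM in the group means. The library chemistry keeps no strand, and whether reads past the end of Slc25a11 entered the Gp1ba values was not tested.

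Peaks at the start site differ between the lists for 5 genes, and start-site sequences are shown for 4 of these, all but Itgb3, and for Gp9, whose start-site peak stands in all lists. Each window holds 250 bases before to 50 bases after the start site on the gene's own strand, from RefSeq on GRCm38.p6, whose start sites equal those of the count table for all 6 genes with an entry; Itgb3 had none. Capitals mark matches on either strand to the GATA letters AGATAA, with G allowed as the last base and T as the first, and to the ETS letters GGAAG, named for the families of factors that bind such letters, which megakaryocytes use. The motifs were chosen after the values were seen. Of 32851 start-site windows of this length in the table, 29.8% held a GATA match and 71.4% an ETS match.
Gp5 (chr16:30310732-30311031, minus strand): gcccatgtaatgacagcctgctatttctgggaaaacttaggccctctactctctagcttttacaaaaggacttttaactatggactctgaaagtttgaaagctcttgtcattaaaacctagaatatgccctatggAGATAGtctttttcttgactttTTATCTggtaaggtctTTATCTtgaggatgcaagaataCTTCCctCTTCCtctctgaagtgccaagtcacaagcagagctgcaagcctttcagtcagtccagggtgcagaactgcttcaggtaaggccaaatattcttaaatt
Gp9 (chr6:87777820-87778119, plus strand): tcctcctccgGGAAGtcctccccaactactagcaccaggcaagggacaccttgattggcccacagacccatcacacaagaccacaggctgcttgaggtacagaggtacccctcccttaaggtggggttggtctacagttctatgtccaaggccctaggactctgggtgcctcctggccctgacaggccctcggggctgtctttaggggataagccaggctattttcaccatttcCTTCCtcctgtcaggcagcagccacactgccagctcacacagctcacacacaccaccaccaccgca
Gp1ba (chr11:70638872-70639171, plus strand): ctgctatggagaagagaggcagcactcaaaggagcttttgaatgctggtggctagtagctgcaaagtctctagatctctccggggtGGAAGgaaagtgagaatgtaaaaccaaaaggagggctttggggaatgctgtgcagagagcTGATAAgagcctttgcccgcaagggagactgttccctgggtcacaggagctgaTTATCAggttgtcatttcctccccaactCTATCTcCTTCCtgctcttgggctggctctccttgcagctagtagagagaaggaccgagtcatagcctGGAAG
Gp1bb (chr16:18622354-18622653, minus strand): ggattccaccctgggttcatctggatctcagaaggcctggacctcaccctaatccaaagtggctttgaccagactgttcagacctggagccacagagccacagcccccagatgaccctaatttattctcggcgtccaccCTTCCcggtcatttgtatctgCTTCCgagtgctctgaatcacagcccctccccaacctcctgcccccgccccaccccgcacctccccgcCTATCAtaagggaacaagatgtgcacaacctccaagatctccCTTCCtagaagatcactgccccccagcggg
Itga2b (chr11:102469834-102470133, minus strand): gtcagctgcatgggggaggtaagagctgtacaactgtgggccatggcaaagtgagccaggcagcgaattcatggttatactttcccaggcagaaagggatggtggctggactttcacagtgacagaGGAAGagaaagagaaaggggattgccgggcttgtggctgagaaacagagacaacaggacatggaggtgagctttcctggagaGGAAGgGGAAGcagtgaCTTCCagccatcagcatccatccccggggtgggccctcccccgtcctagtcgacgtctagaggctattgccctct

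Gp5 and Gp1ba each held 3 GATA matches, Gp1bb held 1 and Gp9 and Itga2b held 0. Counted from the start site, the Gp5 matches began at −115, −93 and −77, and those of Gp1ba at −104, −51 and −23. The Gp1bb match began at −22. ETS matches numbered 4 in Itga2b, 3 each in Gp1ba and Gp1bb, and 2 each in Gp5 and Gp9. In Itga2b they began at −124, −42, −36 and −25. The window of Gp6, not shown because its gene had no counts and no peak, held 1 match of each kind. These letters describe the windows and name no bound factor.

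Library totals ran from 19.8 to 64.8 M counts, and levels are CPM, counts scaled by the TMM-adjusted library total, as mean ± SD over libraries. The gates were visible in the RNA: Slamf1, which encodes CD150, was at 52.7 to 74.0 CPM in HSC and at most 0.952 CPM in LMPP. Adult HSC 3, adult LMPP 3 and fetal LMPP 1 stand apart within their groups, as was known from earlier results of these data. In adult HSC 3 the mast cell and basophil markers summed to 135 CPM, against 7.35 to 8.53 CPM in adult HSC 1 and 2, with the basophil protease gene Mcpt8 at 17.9 CPM and at 0 in the others, while Tpsb2, Tpsab1, Cma1 and Mcpt4 of that list were at 0 in all 3. The 7 gate and stem genes summed to 550 CPM in adult HSC 3 and to 1643 to 1895 CPM in the other adult HSC libraries. Kit held most of that gap, at 195 CPM in adult HSC 3 and up to 1143 CPM in the others. Hlf, Mecom and Fgd5 were also lowest in adult HSC 3, at 65.2, 50.7 and 9.83 CPM. Slamf1 ran only from 69.0 to 74.0 CPM over the 3 libraries, and Ly6a and Procr were not lowest in adult HSC 3.

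In both integrin chains the RNA level was highest in adult HSC. Itga2b stood at 764, 336 and 321 CPM in adult HSC 1 to 3, and at 96.8 and 49.6 CPM in fetal HSC. In LMPP it stood at 14.8, 13.5 and 3.68 CPM in adult and at 6.62, 1.37 and 2.57 CPM in fetal libraries. Every adult HSC library lay above both fetal HSC libraries, and every HSC library lay above every LMPP library, while the LMPP groups overlapped. Itgb3 stood at 81.7, 66.9 and 12.6 CPM in adult HSC and at 8.85 and 2.00 CPM in fetal HSC. In LMPP it stood at 3.23, 2.72 and 0.884 CPM in adult and 2.74, 0.776 and 2.08 CPM in fetal libraries. Adult HSC 3 was the lowest adult HSC library for Itgb3, at 12.6 CPM against 8.85 CPM in the higher fetal HSC library, and fetal HSC 2 lay within the range of the LMPP.

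Within each HSC library, the ratio of Itga2b to Itgb3, per kilobase of exon, was 15.8, 8.50 and 43.2 in adult and 18.5 and 42.0 in fetal HSC, so the α chain RNA was above the β chain RNA in all 5 libraries. The ratio did not separate the ages (exact two-sided permutation test, p = 0.6, where 3 against 2 libraries can give no p below 0.2). Adult HSC 3 and fetal HSC 2 held the highest ratios of their groups.

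Of the von Willebrand factor receptor, 3 chains followed the order of the integrin chains in HSC. Gp1ba, the ligand-binding chain, stood at 35.0, 18.8 and 16.6 CPM in adult HSC and at 9.16 and 6.85 CPM in fetal HSC. In LMPP Gp1ba stood at 0, 0.588 and 0.262 CPM in adult and at 5.54, 1.66 and 0.0425 CPM in fetal libraries, the last from 1 count. Fetal LMPP 1 lay close to the fetal HSC for Gp1ba, and fetal LMPP 3 lay among the adult LMPP. Gp1bb, its disulfide partner, stood at 69.6, 27.2 and 41.1 CPM in adult HSC and at 12.1 and 2.67 CPM in fetal HSC. In LMPP Gp1bb stood at 0.152, 0.252 and 0.0327 CPM in adult, from 1 to 9 counts a library, and at 1.51, 0.961 and 0.807 CPM in fetal libraries, from 19 to 85 counts. The 4 groups did not overlap for Gp1bb, in the order adult HSC, fetal HSC, fetal LMPP and adult LMPP. Gp5, the thrombin-cut chain, stood at 135, 61.0 and 98.1 CPM in adult HSC and at 25.0 and 12.0 CPM in fetal HSC. In LMPP Gp5 stood at 0, 0.560 and 0.982 CPM in adult and 1.12, 1.33 and 0.382 CPM in fetal libraries, and these groups overlapped.

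Gp9, the chain needed for surface transport, had another order. It stood at 61.3, 37.0 and 37.2 CPM in adult HSC and at 56.4 and 43.0 CPM in fetal HSC, so the HSC groups overlapped. In LMPP Gp9 stood at 7.25, 3.56 and 4.57 CPM in adult and at 10.3, 6.10 and 9.54 CPM in fetal libraries. Gp6, the collagen receptor, had 0 counts in all 11 libraries, which allows up to 0.0498 to 0.152 CPM a library at 3 counts. PCR copies are not independent molecules, so this limit holds for counting error alone.

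**Figure D1:**
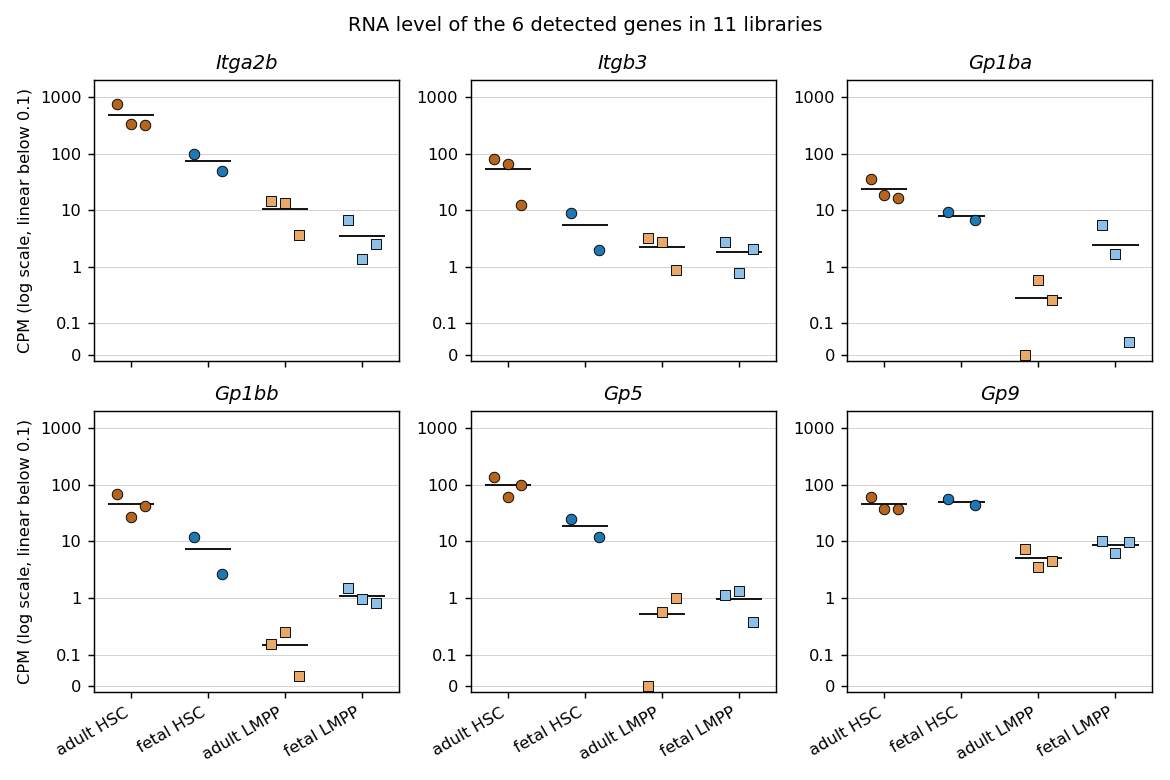
RNA level in CPM (vertical axis, log scale and linear below 0.1) of the 6 detected genes in each library, with the group mean as a bar, for 3 adult HSC, 2 fetal HSC, 3 adult LMPP and 3 fetal LMPP libraries. Adult HSC lie above fetal HSC in all panels except Gp9, where the HSC groups overlap at 37.0 to 61.3 CPM.

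Per kilobase of exon, Itga2b led in adult HSC at 139 ± 73.8 CPM per kilobase (SD, n = 3). Gp9 (51.8 ± 16.0) and Gp5 (44.6 ± 16.8) followed on the same scale, and these neighbours did not differ beyond their spread. Gp1bb (22.1 ± 10.4), Itgb3 (9.32 ± 6.32) and Gp1ba (5.04 ± 2.15) were lower, the last 2 of them within their spread. In fetal HSC Gp9 led at 56.9 ± 10.9 CPM per kilobase (n = 2), ahead of Itga2b at 21.5 ± 9.80, Gp5 at 8.41 ± 4.19, Gp1bb at 3.54 ± 3.19, Gp1ba at 1.72 ± 0.351 and Itgb3 at 0.941 ± 0.840. The order from Gp1bb downward lay within the spread. Gp9 also led in adult LMPP (5.87 ± 2.19) and in fetal LMPP (9.89 ± 2.56 CPM per kilobase, n = 3 each), followed by Itga2b at 3.13 ± 1.79 and 1.03 ± 0.807, while the other members were at 0.525 CPM per kilobase or less.

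Fetal HSC were set against adult HSC. None of the 6 tested members passed edgeR at an adjusted p under 0.05, while 4 had an unadjusted p under 0.05 and DESeq2 called 4. Over all tested genes edgeR called 4.95% in this comparison, 2.89% as lower and 2.07% as higher, and DESeq2 called 6.02% as lower and 4.42% as higher. No share over all tested genes was taken for the unadjusted p. The fitted log2 difference, fetal minus adult, was −3.32 ± 0.97 (SE) for Itgb3 (95% interval −5.46 to −1.17, adjusted p = 0.085) and −2.69 ± 0.76 for Itga2b (−4.37 to −1.01, adjusted p = 0.075). It was −2.65 ± 0.70 for Gp1bb (−4.20 to −1.09, adjusted p = 0.061), −2.41 ± 0.75 for Gp5 (−4.08 to −0.74, adjusted p = 0.11) and −1.55 ± 1.16 for Gp1ba (−4.11 to 1.01, adjusted p = 0.54). Gp9 was at 0.14 ± 0.36, with an interval of −0.66 to 0.93 (adjusted p = 0.90). In 5 of 6 members every fetal library lay below every adult library, as in 20.3% of all tested genes. The median over the 6 was −2.53, beside 0 over all tested genes.

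The calls in HSC turned on the libraries and the tool. Without the 3 libraries that stand apart, Itga2b (adjusted p = 0.0021), Itgb3 (0.0038), Gp1bb (0.022) and Gp5 (0.022) were called lower in fetal HSC by edgeR, and DESeq2 called the same 4 with all libraries (0.0013, 0.0013, 0.0017 and 0.015). In the edgeR fit without the 3 libraries 8.59% of all tested genes were called lower in fetal HSC. Without adult HSC 3 alone, Itgb3 was called (log2 −3.79, adjusted p = 0.026). Leaving out fetal HSC 1 leaves 1 library in that group, and the Gp1bb difference was then log2 −4.10. Leaving out an LMPP library, which enters through the shared spread, also gave calls: Itga2b and Gp1bb without adult LMPP 3, Gp5 without adult LMPP 1 and Itga2b without fetal LMPP 1. The Gp9 difference was −0.074 without fetal HSC 1.

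Markers of other cells moved with this comparison. The 15 markers of megakaryocyte and platelet content, which hold none of the members, summed to 2945 to 3691 CPM in adult and 1601 to 1641 CPM in fetal HSC, and all were detected in both. The 10 erythroblast markers summed to 86.3 to 201 CPM in adult and 977 to 1098 CPM in fetal HSC, and the 2 of 8 tested that were called, both higher, were the β-globin genes Hbb-bt (means of 18.8 and 633 CPM) and Hbb-bs (14.2 and 314 CPM). Others of that list were not called, with means in adult and fetal HSC of 16.9 and 1.79 CPM for Car1, 22.1 and 19.7 CPM for Klf1 and 15.1 and 12.7 CPM for the α-globin gene Hba-a1. The 8 endothelial markers summed to 129 to 188 CPM in adult and 284 to 332 CPM in fetal HSC. The part of these markers in the member values was not tested. In sorted bulk samples, fewer cells of a type and less RNA per cell cannot be told apart.

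The ratio of Gp9 to the other GPIb-IX-V chains, taken within each HSC library per kilobase, was higher in both fetal than in all adult libraries, with means of 7.36 ± 2.36 and 1.21 ± 0.291 for Gp9 to Gp5. The pairs were chosen after the values were seen. Gp9 to Gp5 was 1.15, 1.52 and 0.954 in adult and 5.68 and 9.03 in fetal HSC. Gp9 to Gp1bb was 2.10, 3.24 and 2.16 in adult and 11.2 and 38.4 in fetal HSC, and Gp9 to Gp1ba was 9.36, 10.5 and 11.9 in adult and 32.9 and 33.4 in fetal HSC. No ratio overlapped between ages, and each gave p = 0.2 in an exact two-sided permutation test, the smallest value that 3 against 2 libraries allow. All 3 ratios share the Gp9 values. Adult HSC 3 lay near or within the range of the other adult libraries in each of these ratios.

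**Figure D2:**
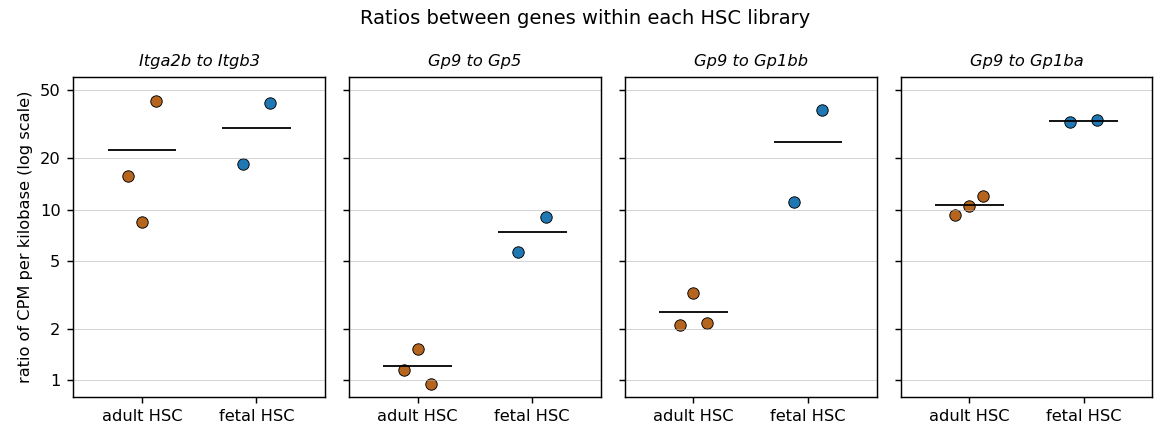
Ratios of CPM per kilobase between genes (vertical axis, log scale) within each of 3 adult and 2 fetal HSC libraries, as points with the group mean as a bar. Gp9 to Gp5 runs from 0.954 to 1.52 in adult and from 5.68 to 9.03 in fetal HSC, while Itga2b to Itgb3 overlaps.

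In LMPP the same contrast of ages gave another picture. Gp1bb was higher in fetal LMPP, at 1.09 ± 0.369 against 0.145 ± 0.110 CPM (n = 3 each; log2 2.87 ± 0.76, adjusted p = 0.029), and it was the 1 member called of 6, where edgeR called 7.08% of all tested genes as higher, 8.29% as lower and 15.4% in all. Its libraries did not overlap, as in 17.8% of all tested genes in that direction. This call rests on 1 to 9 counts per adult library, and it ended without the 3 libraries that stand apart (log2 2.02, adjusted p = 0.17). It also ended without adult LMPP 1 (0.085), adult LMPP 3 (0.084), fetal LMPP 1 (0.087) or fetal LMPP 2 (0.059), and with only the LMPP groups in the fit (0.059). Gp1ba was at log2 2.99 ± 1.16 (95% interval 0.43 to 5.55, adjusted p = 0.11) and was called without fetal LMPP 3 (adjusted p = 0.030). Itga2b was at −1.56 ± 0.65 (−2.99 to −0.12, adjusted p = 0.13), and without the 3 libraries that stand apart it was called lower in fetal LMPP (log2 −2.88, adjusted p = 0.0045), as it was without fetal LMPP 1 alone (−2.46). Gp9 (0.76 ± 0.33, adjusted p = 0.15), Gp5 (0.81 ± 0.75, adjusted p = 0.52) and Itgb3 (−0.26 ± 0.79, adjusted p = 0.87) were not called. The megakaryocyte and platelet content markers summed to 680 to 838 CPM in adult and 599 to 895 CPM in fetal LMPP, with Treml1 at 0 in all adult LMPP. These sums hide changes in both directions: of the 15 markers edgeR called 5 higher and 1 lower in fetal LMPP (median log2 1.25). Means in adult and fetal LMPP were 350 and 171 CPM for Rgs18 and 195 and 102 CPM for Plek. They were 35.9 and 113 CPM for Mmrn1 and 1.04 and 10.2 CPM for Pf4.

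LMPP were then set against HSC of the same age. In adult marrow all 6 tested members were lower in LMPP, where edgeR called 9.33% of all tested genes as lower and 7.76% as higher. Gp1bb fell by 8.24 on the log2 scale (± 0.83, adjusted p = 0.00014), from 46.0 ± 21.6 to 0.145 ± 0.110 CPM. Gp5 fell by 7.47 (± 0.84, adjusted p = 0.00025), from 97.9 ± 36.9 to 0.514 ± 0.493 CPM, and Gp1ba by 6.24 (± 1.28, adjusted p = 0.0077). The integrin chains fell by 5.48 (Itga2b, ± 0.74, adjusted p = 0.00079) and 4.57 (Itgb3, ± 0.87, adjusted p = 0.0054). Gp9 fell by 3.14 (± 0.35, adjusted p = 0.00025), from 45.2 ± 14.0 to 5.12 ± 1.91 CPM. The libraries did not overlap for any of the 6, as in 18.1% of all tested genes in that direction, and the median over the 6 was −5.86 beside −0.05 over all tested genes. All 6 calls held in each of the 19 alternatives run. The markers of megakaryocyte and platelet content also stood lower in adult LMPP, at 680 to 838 against 2945 to 3691 CPM, and their part in the member values was not tested.

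In fetal liver 4 of 6 tested members were lower in LMPP, where edgeR called 9.85% of all tested genes as lower and 8.21% as higher. Itga2b fell by 4.34 (± 0.73, adjusted p = 0.0039), from 73.2 ± 33.4 to 3.52 ± 2.75 CPM, and Gp5 fell by 4.26 (± 0.75, adjusted p = 0.0046). Gp9 fell by 2.52 (± 0.36, adjusted p = 0.0018), from 49.7 ± 9.53 to 8.64 ± 2.23 CPM, and Gp1bb fell by 2.72 (± 0.66, adjusted p = 0.019). The Gp1bb call ended without fetal HSC 1 (log2 −1.27, adjusted p = 0.27), fetal LMPP 2 (0.064) or fetal LMPP 3 (0.059). Itgb3 (−1.51 ± 0.85, 95% interval −3.40 to 0.38, adjusted p = 0.25) and Gp1ba (−1.69 ± 1.09, −4.11 to 0.73, adjusted p = 0.31) were not called, and both were called lower without the 3 libraries that stand apart (adjusted p = 0.047 and 0.032). Every LMPP library lay below both HSC libraries for 5 of the 6, all but Itgb3, as in 33.3% of all tested genes. The 4 comparisons share their groups, so their values for a gene are not independent of each other.

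**Figure D3:**
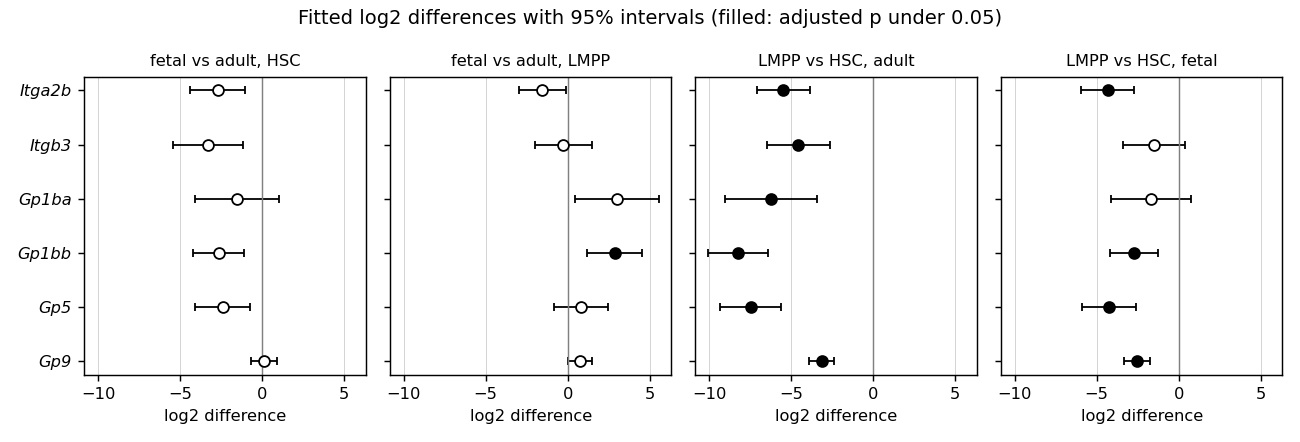
Fitted log2 difference (horizontal axis) of 6 genes in 4 comparisons by edgeR, with 95% intervals; filled points have an adjusted p under 0.05. LMPP against HSC in adult marrow has 6 filled points, from −8.24 to −3.14, and fetal against adult HSC has none.

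The fetal against adult difference was then compared between LMPP and HSC by the interaction term of the same fit. It was larger in LMPP for Gp1bb, by 5.52 on the log2 scale (± 1.04, adjusted p = 0.038), the 1 member called of 6, where 0.387% of all tested genes were called in that direction and 0.543% in the other, 0.931% in all. The term was 4.55 ± 1.66 for Gp1ba (adjusted p = 0.27), 3.22 ± 1.04 for Gp5 (0.22), 3.05 ± 1.20 for Itgb3 (0.32), 1.14 ± 0.94 for Itga2b (0.70) and 0.62 ± 0.49 for Gp9 (0.68). The Gp1bb call ended without the 3 libraries that stand apart (4.77, adjusted p = 0.055) and without any 1 of adult HSC 1, adult HSC 2, fetal HSC 2 and the 6 LMPP libraries (4.80 to 6.35, adjusted p = 0.051 to 0.15).

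Genes whose level followed a member most closely across the 11 libraries were named as a description, by Pearson r of log2(CPM + 1) among 10199 candidate genes at a mean level of 5 CPM or more. The libraries share groups and scaling, so no p is given. Gp5 was nearest to Ces2g (r = 0.983), Gata1 (0.979), Clca3a1, Treml1 and Gp1bb (0.976). Gp1bb was nearest to Prodh (0.981), Gp5, Tuba8, Reep2 and Slc24a5, and Gp1ba to Timp3 (0.958), Pf4, Treml1, Prodh and Ndrg3. Itga2b was nearest to Fam174b (0.980), Ccdc112, Sord, Ssx2ip and Thtpa, and Itgb3 to Abcb4 (0.964), Agtpbp1, Nckap1, Ache and Pdcd4. Gp9 was nearest to P3h2 (0.978), Apoe, Dusp3, Cd55 and Epor, the erythropoietin receptor. Of the other members, only Gp5 and Gp1bb stood among each other's 5 nearest genes.

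Other genes of the pathway were counted from lists chosen with earlier results of these data known. Of 23 tested genes for other platelet membrane receptors, edgeR called 16 lower and 2 higher in LMPP than in HSC in adult marrow, where the shares over all tested genes were 9.33% and 7.76%. In fetal liver it called 12 lower and 1 higher, where the shares were 9.85% and 8.21%. In adult marrow the adhesion molecule Jam3 (log2 −4.05) and the tetraspanin Cd9 (−2.59) fell, and in fetal liver the junction proteins F11r (−3.15) and Esam (−4.85) fell. In fetal against adult LMPP 6 rose and 3 fell, where 7.08% of all tested genes rose and 8.29% fell, among them Jam3, which rose (3.95), and Treml1, a platelet granule receptor, which was at least 9.73-fold higher at 1.08 ± 0.572 CPM against 0 in every adult LMPP library (floor of 3 counts, mean over the group). In fetal against adult HSC 1 fell, Cd9 (log2 −1.86, adjusted p = 0.0019), and 1 rose, Jam3 (1.51, adjusted p = 0.014), where 2.89% and 2.07% of all tested genes did, and F2rl3, a thrombin receptor, was not called (−0.97, adjusted p = 0.055). The Jam3 call ended on leaving out adult HSC 1 (0.053) or either fetal HSC library (0.10 and 0.12). Without the 3 libraries that stand apart, edgeR called 6 of these receptor genes lower and 2 higher in fetal HSC, and 7 lower and 8 higher in fetal LMPP. In that fit 8.59% of all tested genes were lower and 7.59% higher in fetal HSC, and 15.3% lower and 15.2% higher in fetal LMPP.

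Of 14 transcription factors of megakaryocytes, edgeR called 8 lower and 0 higher in LMPP than in HSC at either age, where it called 9.33% of all tested genes as lower in adult marrow and 9.85% in fetal liver. Gata1, which megakaryocytes need to mature, stood at 107 ± 39.4 CPM in adult HSC and 1.76 ± 0.597 in adult LMPP (log2 −5.94), and at 49.7 ± 19.1 and 3.10 ± 1.23 CPM in the fetal cells (−3.98). Gata2 fell at both ages (−3.27 and −3.06), Gfi1b fell in adult marrow (−2.10) and Meis1 in fetal liver (−1.81). Between ages edgeR called 1 of the 14 factors, Lmo2, which was lower in fetal LMPP (−1.28, adjusted p = 0.00039; share over all tested genes 8.29%) and in fetal HSC (−0.72, adjusted p = 0.028; share 2.89%). Without the 3 libraries that stand apart, edgeR called 6 factors lower in fetal HSC and 3 lower in fetal LMPP, and DESeq2 with all libraries called 2 lower in each. In the fit without the 3 libraries 8.59% of all tested genes were lower in fetal HSC and 15.3% in fetal LMPP. By DESeq2 the shares were 6.02% and 12.4%, so the counts in LMPP lie near the shares. The HSC call of Lmo2 ended on leaving out adult HSC 2 (0.060) or either fetal HSC library (0.26 and 0.17), with only the groups compared (0.078) and under the replicate block (0.073). Gata1 between fetal and adult HSC was not called, and its interaction term was 1.96 ± 0.60 (adjusted p = 0.20).

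Of 13 tested partners that open the integrin or act on clot retraction, edgeR called 1 higher and 2 lower in adult LMPP than in HSC: Fermt3 (kindlin-3, log2 −1.29), the small GTPase Rap1b (−1.31) and Rasgrp2, its exchange factor (1.18). In fetal liver Rap1a (1.04) and Ptpn1 (0.53) rose and Fermt3 fell (−0.67). These counts lie near the shares over all tested genes, 7.76% higher and 9.33% lower in adult marrow and 8.21% and 9.85% in fetal liver. In fetal liver the Rap1a and Fermt3 calls ended without fetal HSC 1 (0.054 and 0.17) or fetal HSC 2 (0.071 and 0.13), that of Fermt3 also without fetal LMPP 2 (0.10) or fetal LMPP 3 (0.067), and that of Ptpn1 in 11 of 18 alternatives. Between ages edgeR called 0 partners in HSC and 0 in LMPP, where 4 and 2 had an unadjusted p under 0.05 and DESeq2 called 0 and 2, the latter lower in fetal LMPP. DESeq2 called 12.4% of all tested genes lower in fetal LMPP, and no share was taken for the unadjusted p. Without the 3 libraries that stand apart, edgeR called 3 partners lower in fetal HSC, and 3 lower and 1 higher in fetal LMPP. In that fit 8.59% of all tested genes were lower in fetal HSC, and 15.3% lower and 15.2% higher in fetal LMPP. By edgeR 2 were also lower in fetal LMPP without adult HSC 3 alone, and 1 under the replicate block. With a filter of at least 1 CPM in at least 3 libraries, 1 was lower too. Over all tested genes 10.8%, 7.55% and 9.79% were lower in those fits, in that order. The talin gene Tln1, the other protein that opens the integrin, was not called in any comparison.

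Of 11 genes for GPVI and CLEC-2 signalling, the adaptor gene Lat was lower in fetal HSC, at 11.6 ± 0.558 against 77.9 ± 37.6 CPM (log2 −2.75 ± 0.56, adjusted p = 0.017), and that call ended without fetal HSC 1 (0.16) or fetal HSC 2 (0.19). The adaptor gene Lcp2 (SLP-76) was lower in LMPP at both ages (−1.15 and −1.41). The γ chain gene Fcer1g, through which GPVI signals, was higher in adult LMPP than in adult HSC (0.97, adjusted p = 0.033), a call that ended in 7 of 19 alternatives. Lcp2 was also lower in fetal than in adult LMPP (−0.70), called in 9 of 18 alternatives. The kinase gene Fyn was lower in adult LMPP than in adult HSC (−0.73), a call that ended with only the groups compared (0.054), and higher in fetal than in adult LMPP (0.83). In fetal liver the signalling genes Vav1 (0.48) and Btk (0.85) were higher in LMPP, called in 8 and 9 of 18 alternatives. Of 19 tested genes for other integrin subunits, 5 were higher and 4 lower in adult LMPP than in adult HSC, where 7.76% and 9.33% of all tested genes were, led by Itgb5 (3.94), Itgb7 (2.21) and Itgam (3.18), which encodes CD11b, the protein gated out of the adult cells. In fetal liver 4 were higher and 1 lower, where 8.21% and 9.85% of all tested genes were, among them Itgb7 (1.71) and Itgal (2.20), whose calls ended without fetal HSC 1 (0.051 and 0.10) and, for Itgal, without fetal HSC 2 (0.11). Itgax was at 3.43 CPM in fetal LMPP and at 0 in fetal HSC, at least 35.9-fold higher. In fetal against adult HSC Itgam (3.45) and Itga4 (1.46) rose, the latter called in 9 of 18 alternatives, and in LMPP Itgb2 (1.50) rose and Itgb5 (−3.20) and Itgb7 (−1.04) fell, the last not without adult LMPP 1 (0.056) or fetal LMPP 1 (0.054).

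Among ligands of these receptors, Vwf, the partner of GPIbα, fell from HSC to LMPP in adult marrow (log2 −7.55) and in fetal liver (−5.52), and stood at 123 ± 75.1 CPM in adult and 71.5 ± 10.9 CPM in fetal HSC. Thbs1 was lower in fetal LMPP than in adult LMPP (−4.66) and than in fetal HSC (−4.28), the latter not without fetal HSC 1 (adjusted p = 0.070). The fibrinogen genes Fga, Fgb and Fgg were at 0 in all adult libraries, at 0.667 to 0.920 CPM in the means of fetal HSC and at 0.878 to 1.53 CPM in those of fetal LMPP. Single libraries differed widely, with Fga at 0 and 1.84 CPM in fetal HSC and Fgb from 0 to 2.86 CPM in fetal LMPP. The hepatocyte gene Alb was likewise at 0 in all adult libraries and ran from 0.236 to 13.7 CPM in fetal HSC and from 0.887 to 13.2 CPM in fetal LMPP. By edgeR none of these 3 was called between ages, with adjusted p of 0.15, 0.17 and 0.19 in HSC and 0.067, 0.088 and 0.10 in LMPP. DESeq2 called 2 of the 5 tested ligand genes higher in fetal LMPP and 0 in fetal HSC, and edgeR called 1 higher in fetal LMPP without adult HSC 3, either fetal HSC library or fetal LMPP 2, or with only the groups compared. Over all tested genes DESeq2 called 10.8% higher in fetal LMPP, and these edgeR fits called 4.19 to 10.9%. Without the 3 libraries that stand apart, edgeR called 1 ligand gene lower in fetal HSC and 1 lower in fetal LMPP. In that fit 8.59% and 15.3% of all tested genes were lower.

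Open chromatin near the genes was described from the 4 lists, which hold 53068 peaks for adult HSC, 48286 for fetal HSC, 50579 for adult LMPP and 37156 for fetal LMPP. With 1 list per group there is no spread between replicates and no test, and a missing peak means only that none was listed. A peak within 1000 bases of the start site was listed for 6 of 7 members in adult HSC, where 55.9% of all 25124 genes had one. The count was 4 in fetal HSC (55.0% of all genes), 3 in adult LMPP (53.1%) and 1 in fetal LMPP (50.1%). Gp9 had such a peak in all 4 lists and Gp6 in none.

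The start-site peaks of the GPIb-IX-V genes differed by list. At Gp5 a peak at chr16:30310170-30311239, with its strongest summit at −44 from the start site, stood in the adult HSC list alone and spans the whole window printed above with its 3 GATA matches. In the fetal lists the peak listed at Gp5 lay inside the gene instead, with its summit 1931 bases from the start in fetal HSC and 1660 in fetal LMPP, at percentiles 3.00 and 1.70 of signal within those lists. Adult LMPP had no peak within 10000 bases of Gp5. At Gp1ba a peak at the start was listed in adult HSC (summit at −87, percentile 78.3) and fetal HSC (−73, percentile 47.5) and in neither LMPP list. At Gp1bb the adult HSC list alone held a peak near the start, at chr16:18621425-18621976 with its summit 714 bases inside the gene, where it also overlaps Sept5 and not the window printed above. A region beyond the end of Gp1bb, 4561 to 4581 bases from its start, was listed in all 4 groups. Gp9 had its start-site peak at percentile 61.9 in adult HSC, 38.7 in fetal HSC, 18.9 in adult LMPP and 11.9 in fetal LMPP, and a peak upstream, with its summit between −2033 and −2014, in all lists but fetal LMPP. Percentiles rank peaks within a list, and those of lists of different lengths show no change.

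At the integrin genes, Itga2b had a start-site peak in adult HSC (percentile 58.2), fetal HSC (9.99) and adult LMPP (16.3) and none in fetal LMPP. A peak inside the gene, 2654 to 2734 bases from the start, was listed in all 4 groups, at percentiles 51.5, 61.2, 72.0 and 63.0 in adult HSC, fetal HSC, adult LMPP and fetal LMPP. It was the only peak at Itga2b in fetal LMPP. At Itgb3, adult HSC had 7 peaks from 10000 bases before to 10000 after the gene, all inside it, fetal HSC 2, adult LMPP 5 and fetal LMPP 0. The Itgb3 peak nearest the far end, 59624 bases from the start in adult HSC and 59634 in adult LMPP, stood at percentiles 74.9 and 87.6. Gp6 had no peak within 10000 bases of the gene in any list.

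**Figure D4:**
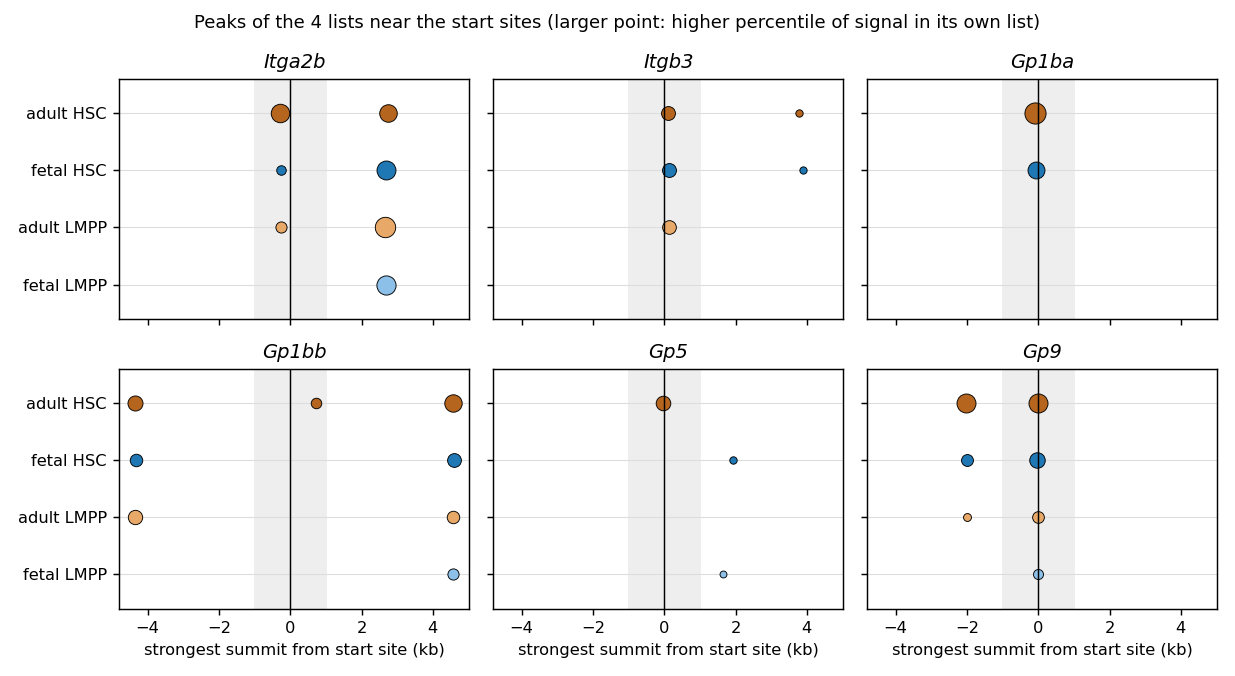
Peaks of the 4 lists by distance of their strongest summit from the start site (horizontal axis, kilobases, positive into the gene; grey band, 1000 bases either side) at 6 genes, 1 row per list. Larger points have a higher percentile of signal within their own list; Gp9 has a point in the band in all 4 rows, and Gp5 in adult HSC alone.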

How the data were processed

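RNA of 11 libraries was copied with the SMART-Seq v4 kit and tagmented, per the labels' protocols, without strand or molecular tags. The deposited RNA table holds expected counts, 1 row per gene, which HOMER summed over exons of mm10 genes, unnormalized, per the file headers. Values come in steps of 0.5, and the 22.5% that are not whole were rounded before testing; 0 columns belong to other libraries. Tools in the submitters' processing notes, given without roles, are MACS2, Picard, Bowtie2 2.3.5, SAMtools 1.9, HOMER, RSEM, STAR, DESeq2 and Trim Galore. The deposited peak lists, 1 per group, give each peak's signal value (a fold enrichment ratio), a −log10 q and a score, per the file headers; the sources used here do not give whether reads were pooled. Peaks differing only in summit were merged.

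Counts were fitted in R 4.3.3 with edgeR 4.0.16 (filterByExpr, 14720 genes; TMM; quasi-likelihood; means model of 4 groups over 11 libraries) with calls below 0.05 after Benjamini-Hochberg adjustment; every adjusted p is from edgeR unless DESeq2 1.42.0 is named. Intervals use 10.5 degrees of freedom. The fit was tested on data simulated with the same spread for every gene and no library standing apart. It recovered 198 of 200 genes changed by 3 on the log2 scale and called 13 unchanged genes. That setting differs from these data, so it does not show how many real changes the fit finds. Same-numbered adult HSC and LMPP libraries deviated together from their group means (r = 0.37, 0.56 and 0.75 across genes). Libraries with different numbers were not compared, so whether the numbers mark pairs was not tested. Alternatives were another scaling, DESeq2, other filters, only the groups compared, a replicate block, and leaving out each library or the 3 that stand apart. For peaks they were other windows, summit overlap and a stricter q. Leaving out either fetal HSC library leaves 1 in that group, so the spread in those fits comes from the other groups.

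The members and lists were chosen with earlier results of these data known. Named genes were the members, the 3 genes with the lowest p of each of 6 lists in each comparison, of which those called are given, and the 5 nearest genes of each detected member; others named from a list were chosen after their values were seen. Values of 1 list gene are not reported here. Itgb3 had no promoter entry and no sequence of it is shown.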

Additional observations from a re-analysis of the deposited data

Results flagged for a closer look

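The fetal against adult difference differed between LMPP and HSC, by the interaction term of the edgeR fit, for 1 of the 6 tested members, where 0.931% of all tested genes were called in either direction. Of the pathway lists, 4 of 23 tested membrane receptor genes were called, of which 3 are given here, and 2 of 19 tested genes for other integrin subunits. For Gp1bb the term was 5.52 ± 1.04 (SE, adjusted p = 0.038): its mean was lower in fetal than in adult HSC (7.37 against 46.0 CPM) and higher in fetal than in adult LMPP (1.09 against 0.145 CPM). The Gp1bb call held in only 7 of 17 alternatives and rests on 1 to 9 counts per adult LMPP library.

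Among other platelet membrane receptors the term was 2.44 ± 0.42 for Jam3 (adjusted p = 0.025), 1.87 ± 0.32 for Cd9 (0.026) and 9.57 ± 1.12 for Treml1 (0.0091). Treml1 had 0 counts in all adult LMPP libraries, so its fitted value depends on the prior count and is no bound. The Treml1 call ended without fetal HSC 2 (0.067), and that of Jam3 in 7 of 17 alternatives, among them those without adult HSC 1 (0.052), adult HSC 2 (0.058), fetal HSC 1 (0.15), fetal HSC 2 (0.18), adult LMPP 1 (0.076) or fetal LMPP 3 (0.059). For Cd9, 305 ± 82.3 and 84.1 ± 0.181 CPM in adult and fetal HSC stood beside 50.6 ± 7.29 and 50.9 ± 7.75 CPM in adult and fetal LMPP.

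Of the other integrin subunits, the term was −3.11 ± 0.54 for Itgam (adjusted p = 0.026) and −2.83 ± 0.47 for Itgb5 (0.021). Itgb5 stood at 58.1 ± 5.50 CPM in adult LMPP and at 2.91 to 6.28 CPM in the means of the other groups. Itgam stood at 3.05 ± 1.17 CPM in adult HSC and at 27.6 to 35.1 CPM in the means of the other groups, and its protein was gated out of both adult populations. The Itgb5 call ended in 7 of 17 alternatives, with the highest adjusted p without fetal HSC 2 (0.17), and that of Itgam in 8 of 17, also highest without fetal HSC 2 (0.16).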

How the results depend on the processing

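All 114 member values for LMPP against HSC in adult marrow kept their direction and their call under 19 alternatives, the adult libraries alone with a replicate block among them. Of the other values, 88 of 108 for fetal against adult HSC, 93 of 108 for fetal against adult LMPP, 103 of 108 for LMPP against HSC in fetal liver and 91 of 102 for the interaction did so. The number of members called in fetal against adult HSC, 0 as reported, was 4 with DESeq2, 3 with the replicate block, 4 without the 3 libraries that stand apart, 2 with only the groups compared and 0 to 2 without 1 library. In fetal against adult LMPP, 1 as reported, it was 3 with DESeq2, 3 with the replicate block, 0 with only the groups compared and 0 to 2 without 1 library. For the interaction, 1 as reported, it was 2 with DESeq2, 0 without the 3 libraries and 0 to 1 without 1 library. In fetal liver it was 3 to 4 without 1 library, 4 as reported. Over all tested genes the share called lower moved between 0.714 and 8.59% in fetal against adult HSC and between 2.53 and 20.6% in fetal liver. In fetal against adult LMPP the shares moved between 3.82 and 15.2% higher and between 5.09 and 15.3% lower. For the interaction they moved between 0.0524 and 2.29% higher and between 0.157 and 3.18% lower. DESeq2 called 10.8% higher and 12.4% lower in fetal against adult LMPP, and 2.11% and 2.52% for the interaction. Of the lists, lower receptor genes in fetal liver numbered 7 to 17 and lower transcription factors 3 to 10, and in fetal against adult HSC 1 to 6 and 0 to 6. Of 54 called list values followed, 20 lost their call in at least 1 alternative.

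With the replicate block, Itga2b (adjusted p = 0.015), Itgb3 (0.045) and Gp1bb (0.027) were called lower in fetal HSC, and Itga2b (lower, 0.039) and Gp9 (higher, 0.046) joined Gp1bb in fetal LMPP. That fit called 2.15% of all tested genes lower in fetal HSC, and 6.57% higher and 7.55% lower in fetal LMPP. Only for the adult libraries was every r above 0.1; r was 0.02 and 0.16 for HSC, −0.36, 0.27 and −0.43 for LMPP and 0.04 and −0.05 in fetal liver. Values that changed sign were Gp9 in fetal against adult HSC without fetal HSC 1 (−0.074), and Itgb3 in fetal against adult LMPP without adult LMPP 1 (0.048) or fetal LMPP 2 (0.098); without 1 library these log2 values ran from −0.074 to 0.42 and from −0.68 to 0.098. The cause was not tested.

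Counting only peaks with a −log10 q above the median of their list left start-site peaks at 3 members in adult HSC and 0 in the other lists, and a window of 5000 bases either side gave 4 in fetal LMPP. Depth limits Gp1ba, Gp1bb and Gp5 in LMPP, where 1 to 9 counts stood behind the Gp1bb value of an adult library.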

Other observations

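Markers of further cell types had these summed levels. The 10 macrophage and monocyte markers summed to 15.5 to 47.5 CPM in adult HSC, 23.8 to 29.7 in fetal HSC, 68.4 to 77.5 in adult LMPP and 79.7 to 173 in fetal LMPP. In LMPP Csf1r, a cytokine receptor gene, held much of that sum, at a mean of 32.8 CPM in adult and 114 CPM in fetal libraries, while Cd68 stood at 27.7 and 10.6 CPM and C1qa, C1qb and C1qc at 1.08, 3.81 and 3.55 CPM in adult and 0.117, 0.575 and 0.588 CPM in fetal LMPP. The 9 hepatocyte markers summed to 54.3 to 81.8 CPM in adult and 56.4 to 139 CPM in fetal HSC, and to 220 to 284 CPM in adult and 67.4 to 159 CPM in fetal LMPP. The transferrin gene Trf alone had a mean of 246 CPM in adult and 78.6 CPM in fetal LMPP. Alb was at 0 in every adult library and at a mean of 6.98 CPM in fetal HSC and 6.18 CPM in fetal LMPP. The 7 B cell markers summed to 37.4 to 91.5 CPM over all groups and the 8 neutrophil markers to 0.460 to 42.4 CPM. In LMPP the mast cell and basophil markers summed to 20.6 to 76.8 CPM in adult and 5.60 to 12.3 CPM in fetal libraries. The 7 LMPP gate and lymphoid genes summed to 2858 to 3298 CPM in adult LMPP, 1165 to 1191 in fetal LMPP and 23.4 to 89.9 in HSC, with Dntt at 0 in fetal LMPP.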
